A study of Homo sapiens with 5 samples.

Results

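The integrated stress response and the unfolded protein response were followed through 36 genes in RNA-seq of PC9, a lung adenocarcinoma cell line that depends on mutant EGFR. The genes were found by their symbols in a table of 27477 genes, where each of the 36 had a row. Of these, 18 make up an ATF4 arm (ATF4, its partners and its targets) and 18 are chaperones of the endoplasmic reticulum (ER) and genes of ER-associated degradation (ERAD). The drug-tolerant group has 2 libraries of PC9 cells that were held in 50 nM of the EGFR inhibitor gefitinib for 6 days and in growth medium for the next 3 days. They are set against 3 libraries of parental PC9 cells, which carry the same EGFR mutation. Drug-tolerant cells were thus sampled after the drug had been taken away, and both groups are 1 cell line. The labels do not say whether libraries of a group came from separate cultures, so a p-value here measures library spread alone, and that spread may be technical.

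The integrated stress response starts with kinases that phosphorylate eIF2alpha, the translation initiation factor. General protein synthesis is then lowered while the ATF4 mRNA is translated more, and ATF4 protein switches on genes of amino acid supply, redox balance and cell death. The unfolded protein response answers misfolded protein in the ER through the sensors IRE1, ATF6 and PERK. IRE1 splices the XBP1 mRNA, ATF6 is cut to release a transcription factor, and PERK is 1 of the eIF2alpha kinases, so the responses meet at ATF4. Levels of mRNA show neither ATF4 translation nor XBP1 splicing.

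These responses act through short promoter elements, and the stretches below are shown because they carry them in genes described here. They were read from the RefSeq promoter table (GRCh38.p14), which held 31 of the 36 genes, within the 250 bases before each start, on both strands. The ER stress element ERSE was searched as CCAAT and CCACG with any 9 bases between them, its variant ERSE-II as ATTGG and CCACG with any 1 base between them, and the ATF4 and C/EBP composite element CARE as TGATG and AA with any 1 base between them. No match of one element overlapped a match of another in these promoters. Capitals mark the match or its reverse complement, and each stretch runs 5′ to 3′ in the direction of the gene. HYOU1 holds 2 matches of ERSE-II, of which the one nearer its start is shown.
HSPA5, ERSE, chr9:125241371-125241429, minus strand: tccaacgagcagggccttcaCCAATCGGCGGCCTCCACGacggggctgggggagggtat
XBP1, ERSE, chr22:28800583-28800641, minus strand: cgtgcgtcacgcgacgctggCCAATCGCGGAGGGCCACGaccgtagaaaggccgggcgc
CRELD2, ERSE, chr22:49918534-49918592, plus strand: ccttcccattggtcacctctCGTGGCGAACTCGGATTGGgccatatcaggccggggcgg
HYOU1, ERSE-II, chr11:119057254-119057304, minus strand: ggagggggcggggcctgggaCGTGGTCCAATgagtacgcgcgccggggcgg
HERPUD1, ERSE-II, chr16:56932005-56932055, plus strand: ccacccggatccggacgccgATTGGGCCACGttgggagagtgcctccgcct
SDF2L1, ERSE-II, chr22:21642094-21642144, plus strand: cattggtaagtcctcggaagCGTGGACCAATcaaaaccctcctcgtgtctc
ASNS, CARE, chr7:97872449-97872496, minus strand: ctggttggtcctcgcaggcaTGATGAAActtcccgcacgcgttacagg
CHAC1, CARE, chr15:40953242-40953289, plus strand: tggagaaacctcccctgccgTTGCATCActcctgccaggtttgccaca

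ERSE was found in 0.074% of all 35116 promoters of the same length and ERSE-II in 0.0513%. Among the stress genes, ERSE lay before HSPA5, HSP90B1, XBP1, CRELD2, CALR and CANX, and ERSE-II before SDF2L1, HERPUD1 and HYOU1. CARE was found in 3.14% of all promoters, and among the stress genes before ATF3, ASNS, CHAC1 and HERPUD1. A match describes these letters and does not show that a factor binds there.

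Depths were about 14.2 to 21.4 M reads for the 5 libraries. They were estimated as the summed deposited means times the size factor solved for each library, and were not counted. The mean level deposited for each gene could be solved, together with its fold change and error, for the whole reads of each library. This gave reads for 28 of the 36 genes. The other 8, with means above 5000, have group means only. For CEBPB, PDIA6 and HYOU1 several sets of reads were possible. The set with parental b and c within 15% of each other was taken. The closeness of parental b and c in these 3 genes is thus not a result. All values per library of these 3 genes, parental a included, rest on that choice. Deposited fold changes are drawn towards 0 by the authors' fit, so ratios of reads are somewhat larger. The libraries are called drug-tolerant a and b and parental a, b and c, since they cannot be matched to replicate numbers, and reads are divided by the size factor of the library. The parental libraries did not lie together. Over 274 genes with means of 100 to 1000, the chi-square per degree of freedom, which is 1 for sampling noise alone, was 10.4 to 11.6 between the drug-tolerant libraries and parental a, and 52.7 to 66.8 between them and parental b and c. Parental a stood at 68.0 and 70.6 from parental b and c. The value was 1.58 between the drug-tolerant libraries (p = 3.12e-09, chi-square test for counting error only), and 1.63 between parental b and c (p = 2.47e-10). Whether parental a differs from parental b and c in its label, its culture or its preparation was not tested, and a different label would change what every fold change here compares. Values for single libraries name parental a. Group means, arm medians and list medians average over this split. Epithelial markers stood high, with means of 8755 for EPCAM and 35758 for KRT8 in the authors' deposited table. The highest haematopoietic marker, ITGAM, had a mean of 25.9, the highest fibroblast marker, COL1A1, 162, and the endothelial marker PECAM1 1616. In bulk RNA, fewer cells with a transcript and less of it in each cell cannot be told apart.

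None of the stress response genes changed between drug-tolerant and parental cells at an adjusted p under 0.05. In the authors' deposited table (DESeq2, adjusted over 15223 genes), 0 of the 35 genes with an adjusted p were called, where 0.552% of all genes tested were, 0.263% higher and 0.289% lower. An unadjusted p under 0.05 was reached by 1 gene higher, HYOU1, and 1 lower, TRIB3, against background shares of 3.7% and 7.1%. The standard errors of the 36 log2 fold changes ran from 0.20 to 0.41 in the authors' deposited table. In the authors' deposited table the median of the ATF4 arm was -0.22 on the log2 scale, with 2 positive and 15 negative values among 17 tested genes, of which PSPH, STC2 and SHMT2 lay within 0.01 of 0. Against parental a alone, the log2 ratio of reads was positive in 8 of the 16 genes of this arm with reads. The ER genes had a median of 0.00, with 9 positive and 9 negative, and all genes tested had a median of -0.02.

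**Figure D1:**
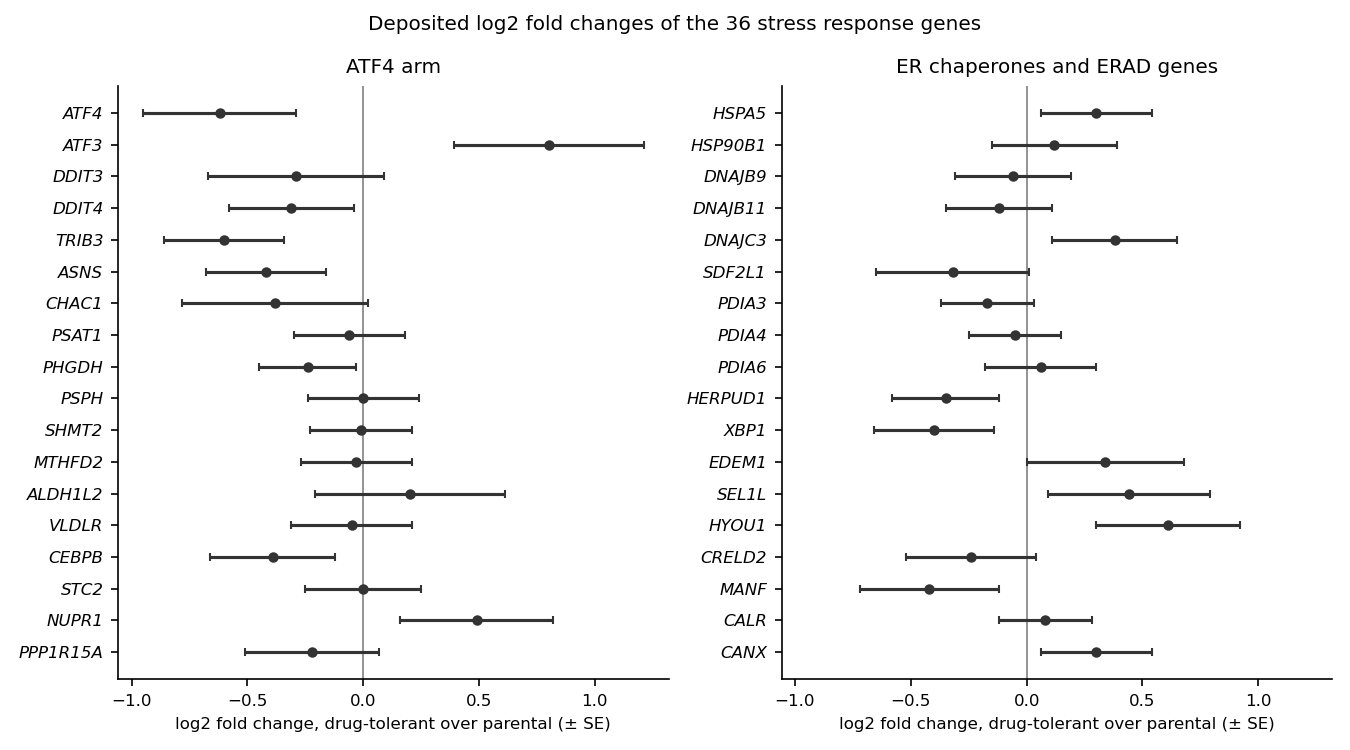
Log2 fold change of drug-tolerant over parental cells from the authors' deposited table for the 18 genes of the ATF4 arm (left) and the 18 ER genes (right); points are values and bars the authors' standard errors. ATF3 at 0.80 and HYOU1 at 0.61 lie furthest to the right, ATF4 at -0.62 and TRIB3 at -0.60 furthest to the left, and no gene was called.

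ATF4 itself (ENSG00000128272; chromosome 22, 39519695 to 39522685, GRCh38) had a group mean of 4476 normalised reads in drug-tolerant cells and 7739 in parental cells. Its log2 fold change was -0.62 ± 0.33 (SE) in the authors' deposited table, with a 95% interval of -1.28 to 0.03, an unadjusted p of 0.0628 and an adjusted p of 0.47 (DESeq2). With the trend of transcript length and GC content over all genes removed, the log2 fold change was -0.43. The unadjusted p was then 0.2 (Wald score with the same trend removed). The reads per library of ATF4 were not solved. Of the genes here, 7, ATF4 among them, have annotated pseudogenes under their own name that could share reads.

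Transcription factors next to ATF4 did not move as 1 group. ATF3, a stress-induced repressor and activator that ATF4 switches on, had 15.9 and 132 normalised reads in drug-tolerant libraries a and b, against 18.5, 30.5 and 23.9 in parental a, b and c. A single library holds the difference: drug-tolerant b lies above all others and drug-tolerant a below them. The log2 fold change of ATF3 was 0.80 ± 0.41 in the authors' deposited table (p = 0.0504, adjusted p = 0.46, DESeq2). The log2 ratio of its reads was 1.58 with all libraries and -0.60 without drug-tolerant b.

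DDIT3, which encodes CHOP, the factor tied to cell death under lasting ER stress, had 49.4 and 54.5 normalised reads in the drug-tolerant libraries, against 36.9 in parental a, 68.8 in b and 103 in c. The drug-tolerant libraries lay within the parental range, above parental a and below parental b and c. Its log2 fold change was -0.29 ± 0.38 in the authors' deposited table (adjusted p = 0.71, DESeq2). DDIT3 overlaps other genes on both strands, and the counting of strands is not given in the sources used here. CEBPB, the C/EBP factor that pairs with ATF4, had 2120 and 2225 in the drug-tolerant libraries, against 2177 in parental a, 3286 in b and 3429 in c. Parental a was on the level of the drug-tolerant libraries. NUPR1, a small stress-induced chromatin protein, had 10 reads in the drug-tolerant libraries and 3 in the parental ones, 0 of them in parental a, a ratio of 5.49 with an exact 95% counting interval of 1.41 to 31.1. The counting interval leaves out spread between libraries. In the authors' deposited table the log2 fold change of NUPR1, moderated towards 0, was 0.49 ± 0.33 (p = 0.141, DESeq2). Its 95% interval of -0.16 to 1.14 belongs to this moderated value and cannot be set against the ratio of reads. NUPR1 was below the authors' filter on low means and has no adjusted p.

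Feedback genes end the response or limit growth, and among them the pseudokinase TRIB3, which binds ATF4 and CHOP, was lower in both drug-tolerant libraries than in any parental one. TRIB3 (ENSG00000101255; chromosome 20, 362835 to 397559, GRCh38) had 422 and 467 normalised reads in the drug-tolerant libraries, against 558, 797 and 784 in parental a, b and c. The groups did not overlap. Its log2 fold change was -0.60 ± 0.26 in the authors' deposited table, with a 95% interval of -1.12 to -0.08 (p = 0.0227, adjusted p = 0.43, DESeq2). The log2 ratio of its reads was -0.83 against parental b and c and -0.33 against parental a alone.

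DDIT4, an inhibitor of mTORC1 signalling, had 272 and 318 normalised reads in the drug-tolerant libraries, against 303, 406 and 422 in parental a, b and c. The groups overlapped through parental a. PPP1R15A, or GADD34, which brings phosphatase to eIF2alpha and so ends the block on translation, had 629 and 971 in the drug-tolerant libraries, against 760, 1015 and 1094 in the parental libraries. Its drug-tolerant libraries differed from each other by more than the log2 ratio of the groups, which was -0.26.

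Among the genes of amino acid, glutathione and one-carbon metabolism, ASNS, CHAC1 and PHGDH were lower in both drug-tolerant libraries than in any parental one. ASNS, asparagine synthetase, had 136 and 164 normalised reads in the drug-tolerant libraries, against 214, 207 and 200 in parental a, b and c. CHAC1, which degrades glutathione, had 10.6 and 11.4, against 17.6, 16.7 and 16.7. These rest on few reads, 12 and 9 before division by size factors, against 21, 17 and 16. In both genes the parental libraries lay together, parental a included, and above the drug-tolerant ones. The log2 fold change was -0.42 ± 0.26 for ASNS (adjusted p = 0.51, DESeq2) and -0.38 ± 0.40 for CHAC1 (adjusted p = 0.64, DESeq2) in the authors' deposited table.

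PHGDH, the first enzyme of serine synthesis, had 1640 and 1656 normalised reads in the drug-tolerant libraries, against 2038, 1803 and 2069 in the parental ones. Its groups did not overlap, with a log2 ratio of -0.26. PSAT1, the second enzyme, had 1489 and 1609, against 1341, 1781 and 1761, and PSPH, the last, had 1247 and 1304, against 1085, 1334 and 1412. In both, parental a was the lowest library and parental b and c the highest. The mitochondrial one-carbon enzymes SHMT2 (1629 and 1774, against 1551, 1762 and 1822) and MTHFD2 (1482 and 1635, against 1353, 1741 and 1701) showed the same order at the low end, and their log2 fold changes in the authors' deposited table were -0.01 ± 0.22 and -0.03 ± 0.24. The 95% intervals, -0.44 to 0.42 for SHMT2 and -0.50 to 0.43 for MTHFD2, leave room for changes in either direction.

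ALDH1L2, a mitochondrial folate dehydrogenase, had few reads, with 9.7 and 10.1 normalised reads in the drug-tolerant libraries, against 10.9, 5.9 and 5.2 in the parental ones. VLDLR, a lipoprotein receptor induced by ATF4, had 191 and 209, against 238, 190 and 197. Both sets of values overlapped between the groups. STC2, a secreted glycoprotein of calcium and phosphate balance, had group means of 5874 in drug-tolerant and 5874 in parental cells, at -0.00 ± 0.25 in the authors' deposited table.

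**Figure D2:**
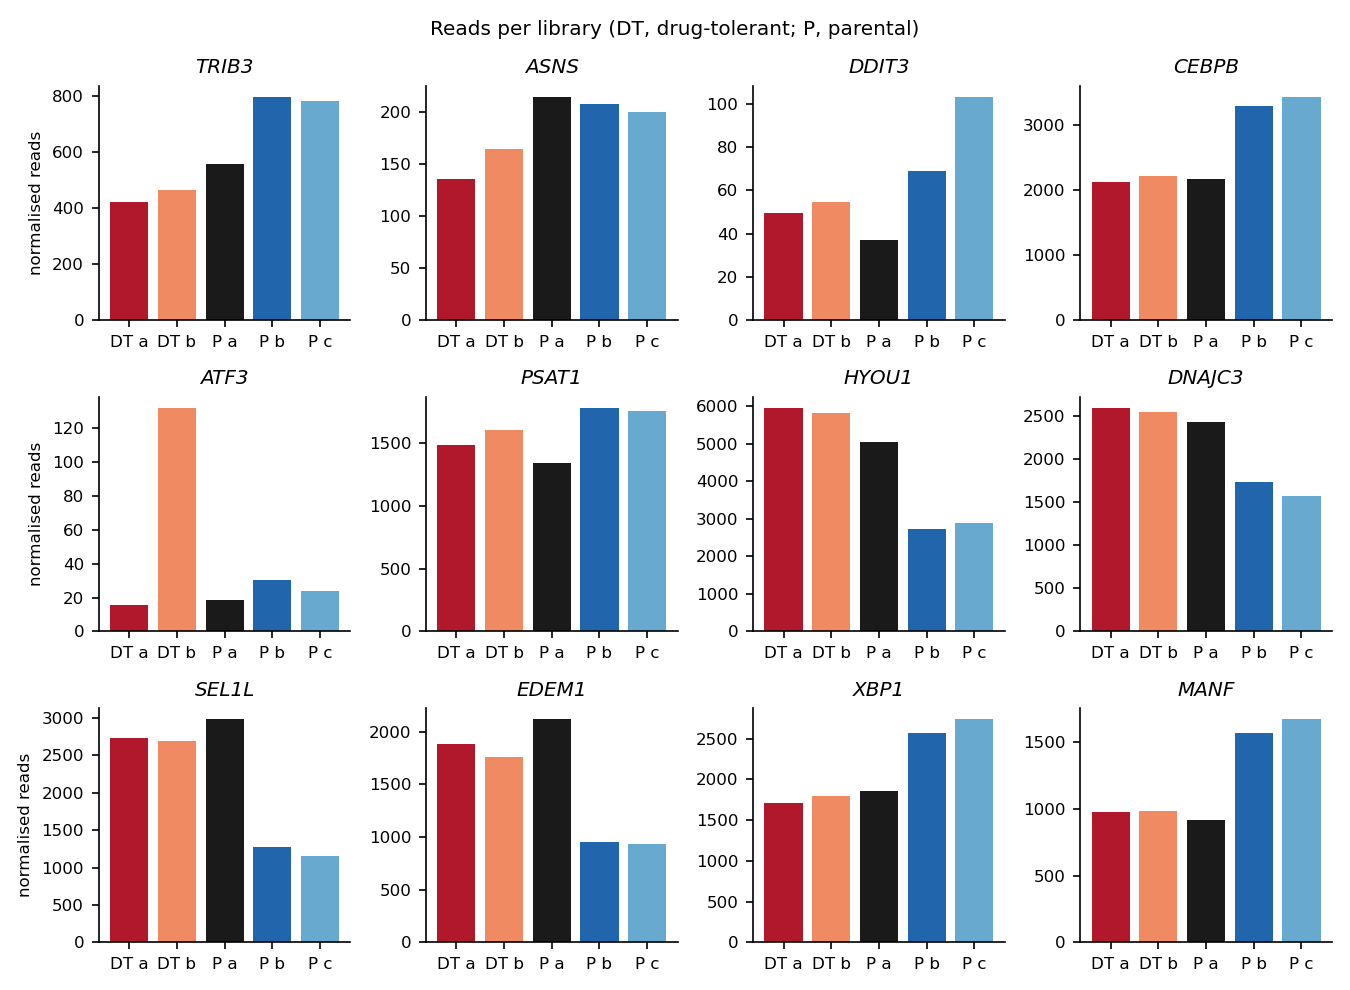
Normalised reads (vertical axis, from 0) of 12 genes in drug-tolerant libraries a and b and parental libraries a, b and c, 1 bar for each library. TRIB3 and ASNS are lower in both drug-tolerant libraries than in all parental ones, ATF3 is high in drug-tolerant b alone, and in HYOU1, SEL1L, EDEM1, XBP1 and MANF parental a stands with the drug-tolerant libraries.

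Among the ER genes the most abundant were chaperones. Per kilobase of transcript, the mean level in the authors' deposited table was 7740 for CALR, 7330 for HSP90B1, 4080 for CANX and 3790 for HSPA5. HSPA5, or BiP, the Hsp70 of the ER and the classic marker of the unfolded protein response, had group means of 16870 in drug-tolerant and 13455 in parental cells. Its log2 fold change was 0.30 ± 0.24 in the authors' deposited table, with a 95% interval of -0.17 to 0.76 (adjusted p = 0.56, DESeq2). HSP90B1, the Hsp90 of the ER, had group means of 22139 and 20140 in drug-tolerant and parental cells, at 0.12 ± 0.27 (log2) in the authors' deposited table. The lectin chaperones of glycoproteins, CANX and CALR, had values of 0.30 ± 0.24 and 0.08 ± 0.20 in the same authors' deposited table. None of these intervals excludes 0.

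HYOU1, a large Hsp70-like chaperone that works with BiP, had the highest positive value of the ER genes. HYOU1 (ENSG00000149428; chromosome 11, 119044189 to 119057202, GRCh38) had 5953 and 5834 normalised reads in the drug-tolerant libraries, against 5043, 2724 and 2891 in parental a, b and c. The groups did not overlap, but parental a lay much nearer to the drug-tolerant libraries than to parental b and c. Both hold for the set of reads that was taken from 9 possible ones for its alike parental b and c. Its log2 fold change was 0.61 ± 0.31 in the authors' deposited table, with a 95% interval of 0.01 to 1.21 (p = 0.0461, adjusted p = 0.46, DESeq2). With the length and GC trend removed its unadjusted p was 0.13. The log2 ratio of its reads in the set taken was 1.07 against parental b and c and 0.23 against parental a alone. Of the 274 comparison genes, 20.4% were higher in both drug-tolerant libraries than in any parental one.

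The J-domain partners of BiP differed among themselves. DNAJC3, also called p58IPK, had 2587 and 2547 normalised reads in the drug-tolerant libraries, against 2429, 1733 and 1564 in parental a, b and c. DNAJB11 had 1639 and 1695, against 1562, 1967 and 1949, and DNAJB9, a brake on IRE1, had 239 and 235, against 265, 253 and 225. Only in DNAJC3 of these 3 did the groups not overlap, with parental a close below the drug-tolerant libraries. The same held in this direction for 20.4% of the 274 comparison genes. SDF2L1, which works with DNAJB11 on BiP clients, had 358 and 295, against 256, 497 and 548, so the drug-tolerant libraries lay above parental a and below parental b and c.

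Protein disulfide isomerases, which form and reshuffle disulfide bonds, were close to level between the groups. PDIA3 had group means of 6014 in drug-tolerant and 6846 in parental cells, and PDIA4 9745 and 10102. Their log2 fold changes in the authors' deposited table were -0.17 ± 0.20 and -0.05 ± 0.20. PDIA6, which also limits IRE1 signalling, had 4415 and 4249 normalised reads in the drug-tolerant libraries, against 5001, 3742 and 3706 in the parental libraries, with parental a highest.

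XBP1, the target of IRE1 splicing, had 1704 and 1798 normalised reads in the drug-tolerant libraries, against 1856, 2564 and 2738 in parental a, b and c. The groups did not overlap, as in 12.8% of comparison genes in this direction, although parental a was only just above the drug-tolerant libraries. Its log2 fold change was -0.40 ± 0.26 in the authors' deposited table (adjusted p = 0.51, DESeq2), and the log2 ratio of its reads was -0.08 against parental a alone. Of the secreted stress proteins, MANF had 976 and 989, against 918, 1568 and 1674, and CRELD2 had 699 and 724, against 618, 948 and 1016. In both, parental a was the lowest library and the groups overlapped.

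ERAD genes went in different directions. HERPUD1, which scaffolds the ubiquitin ligase of the ER membrane, had 407 and 417 normalised reads in the drug-tolerant libraries, against 489, 530 and 594 in parental a, b and c. Its groups did not overlap, as in 12.8% of the 274 comparison genes in this direction. The log2 fold change of HERPUD1 was -0.35 ± 0.23 in the authors' deposited table (adjusted p = 0.51, DESeq2). SEL1L, the partner of that ligase, had 2729 and 2690, against 2983, 1274 and 1151. EDEM1, which marks misfolded glycoproteins for disposal, had 1885 and 1757, against 2120, 957 and 936. For SEL1L and EDEM1 parental a was the highest of the 5 libraries, and the drug-tolerant libraries were far above parental b and c. The log2 fold changes of SEL1L and EDEM1, 0.44 ± 0.35 and 0.34 ± 0.34 in the authors' deposited table, average over that split. Without parental a the log2 ratios of reads were 1.16 and 0.94, and against parental a alone -0.14 and -0.22.

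Over the 28 genes with reads, every drug-tolerant library was above every parental library in 3 (NUPR1, DNAJC3 and HYOU1) and below in 6 (TRIB3, ASNS, CHAC1, PHGDH, HERPUD1 and XBP1). In the 274 other genes, whose means were 100 to 1000, the share above was 20.4% and the share below 12.8%, together 33.2%. Most of the 28 genes have means outside that range, so the shares here are not matched to them in level. Without parental a, 7 of the 28 were above and 17 below, against 43.4% and 46% of the other genes, together 89.4%. Groups that do not overlap were thus common in the other genes too once parental a was left out. In 21 of the 28 genes parental a was nearer to the drug-tolerant mean than to the mean of parental b and c, as in 83.6% of the other genes. The exceptions were ATF3, ASNS, CHAC1, PHGDH, NUPR1, DNAJB9 and HERPUD1. The places of CEBPB, PDIA6 and HYOU1 in these counts rest on the sets of reads chosen for them. The median size of the log2 ratio over the 28 genes was 0.53 against parental b and c and 0.21 against parental a alone, and over the other genes 0.52 and 0.16.

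**Figure D3:**
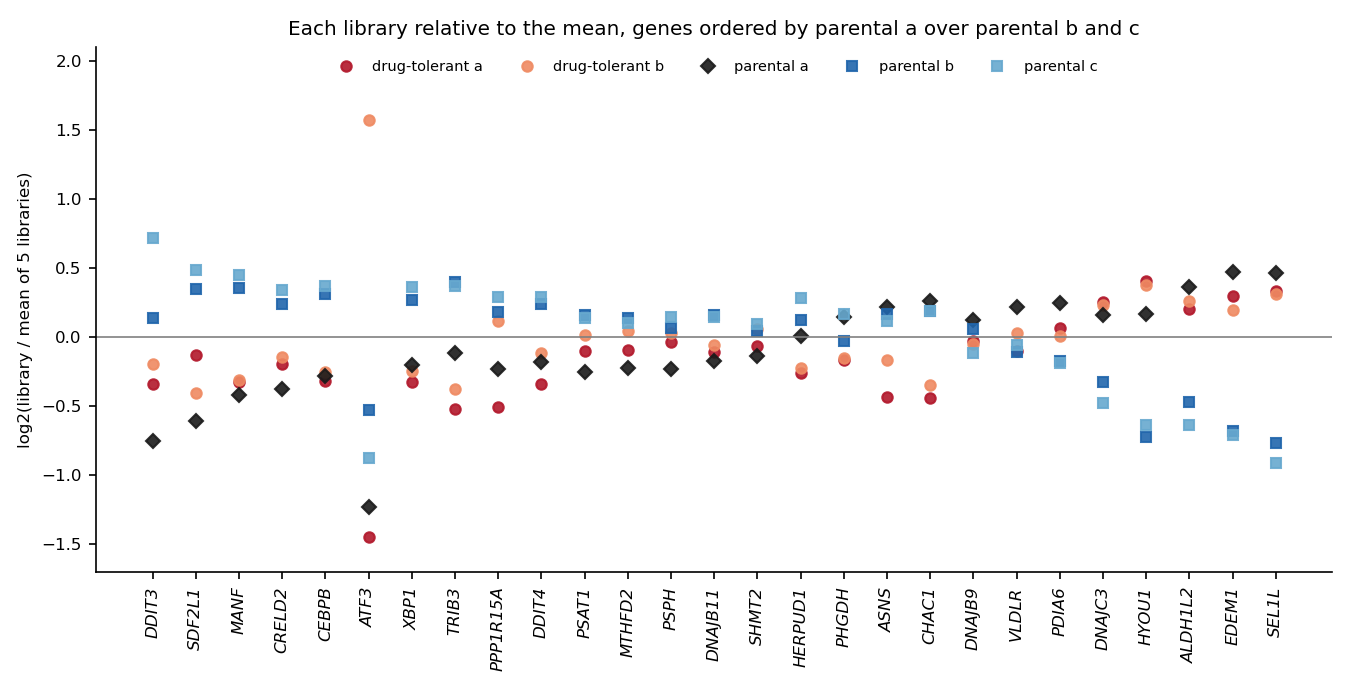
Log2 of each library over the mean of the 5 libraries (pseudocount 0.5) for 27 of the 28 genes with reads, NUPR1 left out for its few reads; genes run from the lowest to the highest ratio of parental a over parental b and c. The black diamonds of parental a follow the drug-tolerant circles at both ends, and in ASNS, CHAC1 and PHGDH they stand with the parental squares.

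The position of a gene in this pattern went with the length of its transcript. Across the 28 genes, Spearman's correlation with transcript length was 0.73 for the log2 ratio of parental a over parental b and c, and 0.66 for that of drug-tolerant over parental libraries. Across 272 other genes the values were 0.66 and 0.58. Against parental a alone, the ratio of drug-tolerant libraries had a correlation of -0.29 over the 28 genes and -0.27 over the others. These are descriptions across genes, which share the 5 libraries and are not independent replicates. SEL1L (7925 nucleotides), EDEM1 (6146) and DNAJC3 (5591) had long transcripts and values above 0, while SDF2L1 (865), DDIT3 (1067) and MANF (1153) had the shortest ones and values below 0. VLDLR, with the longest transcript (9163), stood apart from this order at -0.05 ± 0.26 in the authors' deposited table. Among the 35 genes with an adjusted p, the 17 longer than the median stood at a median of 0.06 (log2 fold change) in the authors' deposited table, and the other 18 at -0.30. With the trend of length and GC content over all genes removed, MANF was at -0.03, SDF2L1 at 0.12, SEL1L at 0.16 and HYOU1 at 0.47, while TRIB3 was at -0.50. The ATF4 arm then had a median of -0.13 and the ER genes of 0.11. The part of the parental split in these values was not tested.

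**Figure D4:**
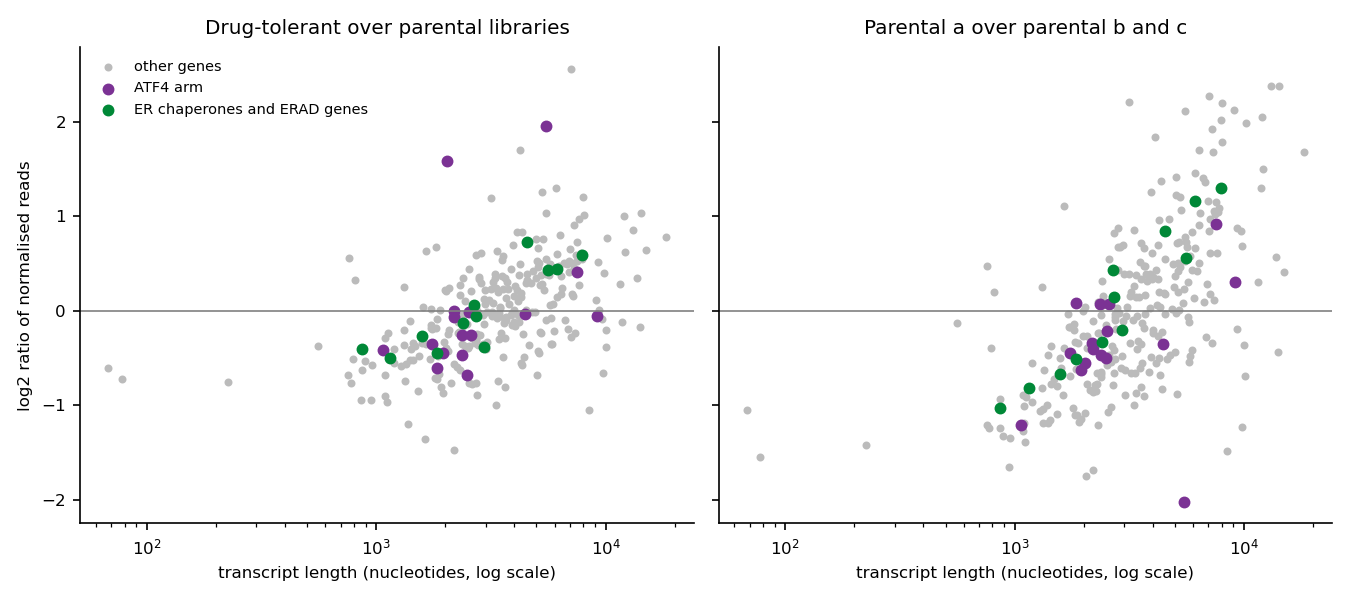
Log2 ratio of normalised reads against transcript length (log scale) for drug-tolerant over parental libraries (left) and parental a over parental b and c (right), for the ATF4 arm, the ER genes and 272 other genes in grey. In both panels ratios are higher for longer transcripts, with Spearman's correlations of 0.66 and 0.73 over the 28 stress genes.

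In the deposited fold changes, promoter elements did not sort the genes by direction. The 9 genes with ERSE or ERSE-II, such as HSPA5, HYOU1 and XBP1 printed above, had log2 fold changes of -0.40 to 0.61 in the authors' deposited table, with 5 above and 4 below 0 and a median of 0.08. The 8 other ER genes with a promoter entry ran from -0.42 to 0.44, with a median of 0.00. With the length and GC trend removed, HERPUD1 (-0.30) and XBP1 (-0.17) were below 0. The other genes with ERSE or ERSE-II then lay at 0.04 to 0.47. The 8 ER genes without these elements then ran from -0.03 to 0.20. Of the 4 genes with CARE, the deposited values of ASNS, CHAC1 and HERPUD1 were negative. That of ATF3 was positive, through drug-tolerant b alone.

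In 9 further lists with 150 genes, 0 of the 146 tested genes had an adjusted p under 0.05 in the authors' deposited table, and 4 were higher and 10 lower at an unadjusted p under 0.05. The shares over all genes are 0.552% for the adjusted p, and 3.7% higher and 7.1% lower for the unadjusted p, so the counts are near this background. Of 14 genes for the eIF2alpha kinases, eIF2 and eIF2B, with a median of 0.09, 0 reached an unadjusted p under 0.05, and EIF2S2, the beta subunit of eIF2, was at -0.46 ± 0.33 in the authors' deposited table. Among 25 tested further ATF4 targets, with a median of -0.07, 2 were higher and 2 lower at that level. They were CTH, the last enzyme of cysteine synthesis (0.69 ± 0.27), VEGFA, the angiogenic growth factor (0.57 ± 0.25), the peptide hormone ADM2 (-0.78 ± 0.37) and the CDK inhibitor CDKN1A (-1.01 ± 0.36) in the authors' deposited table. The 20 cytosolic aminoacyl-tRNA synthetases, which charge tRNAs and include many ATF4 targets, had a median of 0.09, with EPRS1 at 0.60 ± 0.33 and MARS1 at 0.47 ± 0.26 in the authors' deposited table.

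The sensors and proteases of the unfolded protein response had a median of 0.05 over 9 genes, with ERN1, which encodes IRE1, at 0.55 ± 0.35, CREB3L1 at -0.63 ± 0.40 and CREB3L4 at -0.55 ± 0.27 in the authors' deposited table. ERN1 was at 0.22 and CREB3L4 at -0.30 with the trend of length and GC content removed. Of the 16 genes of the translocon and signal peptidase, which bring proteins into the ER, 13 were negative, against 7851 of all 15223 genes tested. Lower values with an unadjusted p under 0.05 were seen in 5 of the 16, against 7.1% of all genes. Their median was -0.40, against -0.02 over all genes, and SEC61G, a small translocon subunit, was at -0.89 ± 0.37 (p = 0.0164, adjusted p = 0.4, DESeq2) in the authors' deposited table. With the length and GC trend removed this median was -0.34, and SEC61G was at -0.40. The list was chosen with earlier results of these data known, and was not tested as a set. Reads per library were not solved for its genes, so the place of parental a among them is not known. The median was -0.02 for 23 further ER folding and glycosylation genes and -0.16 for 17 further ERAD genes. KDELR1, a receptor that returns chaperones to the ER, was at -0.73 ± 0.33 and NPLOC4, a cofactor that extracts ERAD clients, at 0.53 ± 0.20 in the authors' deposited table, and with the trend removed they were at -0.45 and 0.31. Cytosolic heat shock genes had a median of 0.18 over 13 genes, with HSPH1 at 0.67 ± 0.32, and mitochondrial chaperones and proteases 0.05 over 9, with HSPA9 at 0.38 ± 0.21 in the authors' deposited table.

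**Figure D5:**
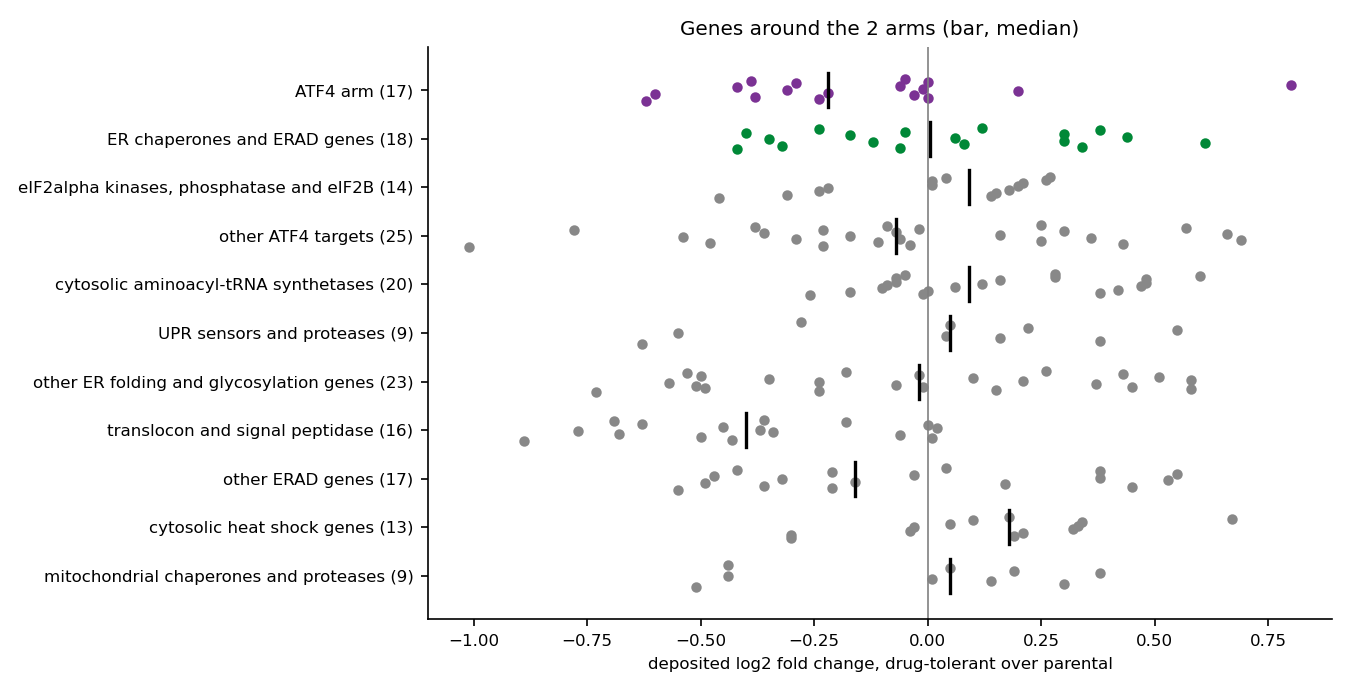
Log2 fold change of drug-tolerant over parental cells from the authors' deposited table for tested genes of the ATF4 arm, the ER genes and 9 further lists; each point is a gene, the bar is the median and the number tested is in brackets. The translocon and signal peptidase list has the lowest median, -0.40, and the heat shock list the highest, 0.18.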

How the data were processed

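Stranded mRNA libraries were made from PC9 cells, per the labels' protocols. The submitters' processing notes name FastQC, STAR, DESeq2 and hg38, without versions or settings. The authors deposited a DESeq2 result table. Its first column, deposited as a signal, is the mean over 5 libraries of reads over size factors. The log2 fold changes and standard errors were deposited by the authors after moderation towards 0, so low genes are understated. The authors deposited the ratio of fold change to standard error as the Wald score, and p-values and adjusted p-values were deposited with it.

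Reads per library were solved with Python 3 scripts (scipy, numba) as the whole numbers that give the deposited mean, log2 fold change and standard error together under the moderated fit with a prior variance of 0.336. Below a mean of 70 every combination of reads was searched. From 70 to 1000, reads within 0.3 to 2.2 times the group mean were searched, and from 1000 on within 0.5 to 1.7 times. A single solution thus means 1 within these ranges. Parental a of SEL1L and EDEM1 lies near the upper end of its range. Of the 36 genes, 25 had 1 solution and 3 (CEBPB, PDIA6 and HYOU1) had several. Of the several, the one with parental b and c within 15% was taken. The other 8 genes were not searched. For those 8, group means were solved from the same columns, which differed from reads by at most 0.0038 in log2 ratio over 23 genes. The comparison genes were every 25th of 6928 genes with means of 100 to 1000, of which 274 of 278 had 1 solution. Ratios use a pseudocount of 0.5. The sign was settled from low genes: reads of 2 libraries pull the fold change up and of 3 down, so positive is higher in drug-tolerant cells.

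Transcript lengths and positions are from GENCODE v29. Calls are the authors' adjusted p under 0.05, and no test was refitted, because reads were solved for part of the genes. The 36 genes, the arms and the 9 lists were chosen with earlier results of these data known. All 36 are named, and of each other list the called genes, or else up to 3 with the smallest unadjusted p. ADM2, which completes a count, was named after its value was seen. Intervals are 95%.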

Additional observations from a re-analysis of the deposited data

How the results depend on the processing

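The 0 calls among the stress genes and among the further lists stayed at 0 with adjustment over every gene. They also stayed at 0 with adjustment over genes with a mean of at least 50, and with the length and GC trend removed. An adjusted p under 0.01 gave 0 as well, but a stricter threshold could not add calls. A centred and scaled score gave 0 too, though it divides scores by a robust SD of 1.5, which makes calls harder. The 2 genes with an unadjusted p under 0.05 became 0 under 0.01 and 0 with the score centred and scaled. Removing the trend of length and GC content also gave 2, but TRIB3 and ATF3 passed and HYOU1 did not. ATF3 is high in drug-tolerant b alone. The median of the ATF4 arm ran from -0.22 to -0.13 and that of the ER genes from 0.00 to 0.11 over all alternatives. The 9 genes whose groups do not overlap became 9 to 24 when a library was left out, with 24 without parental a. Leaving out a library can only keep or raise this count, so it does not test its stability. Of the comparison genes, 33.2% did not overlap with all 5 libraries and 89.4% without parental a. The log2 ratio of reads changed sign in 5 of 28 genes without drug-tolerant a, in 1 without drug-tolerant b (ATF3, -0.60), in 1 without parental a and in 4 each without parental b or c. Against parental a alone, a comparison chosen after seeing the data, 14 changed sign. Counting parental b and c as 1 library left the count of genes without overlap at 9, and could not have lowered it. No paired analysis was possible because the deposited table has no replicate numbers. Calls with a library left out were not run, since they need reads of all genes. Depth limits NUPR1, CHAC1 and ALDH1L2, which have few reads.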
